A study of Mus musculus with 4 samples.

Results

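Rbm33 is a protein-coding gene of mouse chromosome 5 and, in the RefSeq gene order, the gene next to Shh. Its nuclear RNA was read here by 1244 of the 48316 tiling probes of a custom Agilent array. The probes were chosen by position alone: each lies in chr5:28640001-28755000 (mm9), an interval of 115 kb, and the span of Rbm33 was taken as about 28643000-28746000. Of the 1244 probes, 1110 lay in the span, 36 before it, 97 after it and 1 across a border of the span. In windows of 5 kb the interval held 23 of the 964 windows of the array. It lies in a longer run of probes around Shh, called the Shh tile. The span was given as an approximate position, and no mm9 annotation was used here, so exons and introns could not be told apart.

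Nuclear RNA came from mouse 46c embryonic stem cells (ESC) grown in supplemented GMEM medium, and from neural progenitor cells (NPC) made from ESC with the N2B27 protocol, a differentiation in a defined medium. In the 46c line a fluorescent reporter sits at the Sox1 gene. Each group has 2 samples, called ESC 1, ESC 2, NPC 1 and NPC 2, with 1 array each, and the sole stated difference between the groups is the culture protocol. In both groups chromatin was prepared from nuclei with no RNase A, RNA was extracted with TRIzol, amplified by the WTA2 kit and given the dye Cy3 by random priming. The labelled DNA keeps no strand, so RNA of either strand of the interval gave the same signal. Nothing in the labels says that samples of a group are separate cultures, so p-values cover only the spread between these samples and that spread may be technical. The labelled cell types were not checked against markers, because no table used here places marker genes on mm9.

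RBM33 is an RNA-binding protein, named for its RNA-binding motif. In human cells it is known as a partner of the RNA demethylase ALKBH5 and as a factor in the nuclear export of transcripts. Rbm33 is broadly expressed, whereas its neighbour Shh encodes a secreted signalling protein with restricted expression in the embryo. RNA taken from nuclei holds unspliced transcripts, so signal can be read over introns as well as exons.

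The promoter is shown because the signal described below begins at the start of the span. The 250 bases before the annotated start are given 5′ to 3′ from RefSeq (GRCm38.p6, chr5:28316939-28317188, plus strand), with each CG in capitals. These coordinates belong to GRCm38 and were not converted to mm9.
Rbm33 promoter: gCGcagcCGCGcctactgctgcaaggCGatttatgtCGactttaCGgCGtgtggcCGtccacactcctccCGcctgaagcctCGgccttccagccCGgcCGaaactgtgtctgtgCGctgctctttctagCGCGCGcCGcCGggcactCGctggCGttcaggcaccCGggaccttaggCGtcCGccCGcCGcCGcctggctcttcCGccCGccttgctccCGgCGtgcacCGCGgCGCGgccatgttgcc
These bases hold 34 copies of the motif CG, which reads the same on both strands, and their GC content is 70.8%. Of 32851 promoters in the table, 3.53% hold at least as many in the same stretch, and the median is 6. The match is a description of the letters, and the array carries no reading of this promoter's activity other than RNA.

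Across the array 42.5% of probes in ESC 1, 44.6% in ESC 2, 54.1% in NPC 1 and 54.3% in NPC 2 were marked well above background. Levels are log2 intensity relative to a 75th percentile of each array, so a negative level lies below that percentile. Under this scaling the median change of all windows from ESC to NPC was -0.34, and the sign of small changes rests on the scaling. The lowest reading that the scanner program returns, the floor, lay at -5.75 in ESC 1, -5.86 in ESC 2, -6.06 in NPC 1 and -6.33 in NPC 2 once scaled. A probe at the floor on all 4 arrays thus shows a difference of -0.39. Of the Rbm33 probes, 17.2% and 15.8% were at the floor in ESC 1 and ESC 2, and 16.8% and 20.8% in NPC 1 and NPC 2.

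Rbm33 gave signal over most of its probes on every array. Of its probes, 65.0% were well above background in ESC 1, 66.6% in ESC 2, 67.0% in NPC 1 and 63.5% in NPC 2. In the rest of the Shh tile, which holds 11146 probes, that share was 41.2% in ESC 1, 44.7% in ESC 2, 37.4% in NPC 1 and 39.7% in NPC 2. All 4 arrays thus lay higher over Rbm33 than any array did over the pooled rest of the tile. Over Rbm33 the 2 NPC values enclosed the 2 ESC values. Parts of the tile differed: chr5:29560001-29675000 had mean levels of -2.34 and -2.32 in ESC 1 and ESC 2, above Rbm33 at -2.53 and -2.52. In NPC 1 and NPC 2 it read -3.33 and -3.85, below Rbm33 at -2.58 and -2.96.

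By probe, 617 of the 1244 (49.6%) were well above background on all 4 arrays and 268 (21.5%) on none. In the rest of the tile these classes held 27.8% and 45.3% of probes. Probes seen on both ESC arrays and neither NPC array numbered 20 (1.61%), against 2.32% in the rest of the tile. Probes seen on both NPC arrays and neither ESC array numbered 34 (2.73%), against 0.628%. On the whole array these classes held 1.48% and 10.8% of probes. Over Rbm33 the share seen in ESC alone was thus near that of the whole array. The share seen in NPC alone was above that of the rest of the tile and below that of the whole array. No reading in the interval was saturated, and 15 readings marked as outliers were left out.

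Signal started sharply at the beginning of the span. In the last 1 kb before it, with 13 probes, 7.69% were well above background in ESC 1, 15.4% in ESC 2, 0 of 13 in NPC 1 and 7.69% in NPC 2. In the first 1 kb inside it, with 14 probes, the share was 64.3% in ESC 1 and 57.1% on each of the other arrays. The mean level in these bins went from -5.37 to -2.63 in ESC 1, from -5.25 to -2.81 in ESC 2, from -5.68 to -3.06 in NPC 1 and from -5.66 to -3.04 in NPC 2. The step lay in the same bin on every array. The window just before the interval, 28635001-28640000, had 11.8% of probes above background in both cell types.

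At the end of the span the level fell but most probes stayed above background. In the last 1 kb of the span the share was 100% in ESC 1, ESC 2 and NPC 1 and 92.9% in NPC 2. In the first 1 kb beyond it the share was 64.3% in ESC 1, 78.6% in ESC 2, 78.6% in NPC 1 and 64.3% in NPC 2. The mean level in these bins went from -0.58 to -2.77 in ESC 1, from 0.01 to -2.08 in ESC 2, from -0.54 to -2.60 in NPC 1 and from -0.05 to -3.31 in NPC 2, a fall on every array. Over all 97 probes after the span the share was 64.9%, 67.0%, 64.9% and 59.8% in ESC 1, ESC 2, NPC 1 and NPC 2, near the values inside the gene. It was uneven along this stretch. From 6 to 7 kb past the end, with 11 probes, it was 36.4% on both ESC arrays and 45.5% on both NPC arrays, near the rest of the tile. From 7 to 8 kb it was 83.3% on every array, but over 6 probes. Signal was thus still read up to 9 kb past the given end in both cell types, but not evenly. Without strand it cannot be assigned to Rbm33 or to another transcript. The first probe after the interval was at the floor on all 4 arrays, and the next 5 kb held too few probes to be read.

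**Figure D1:**
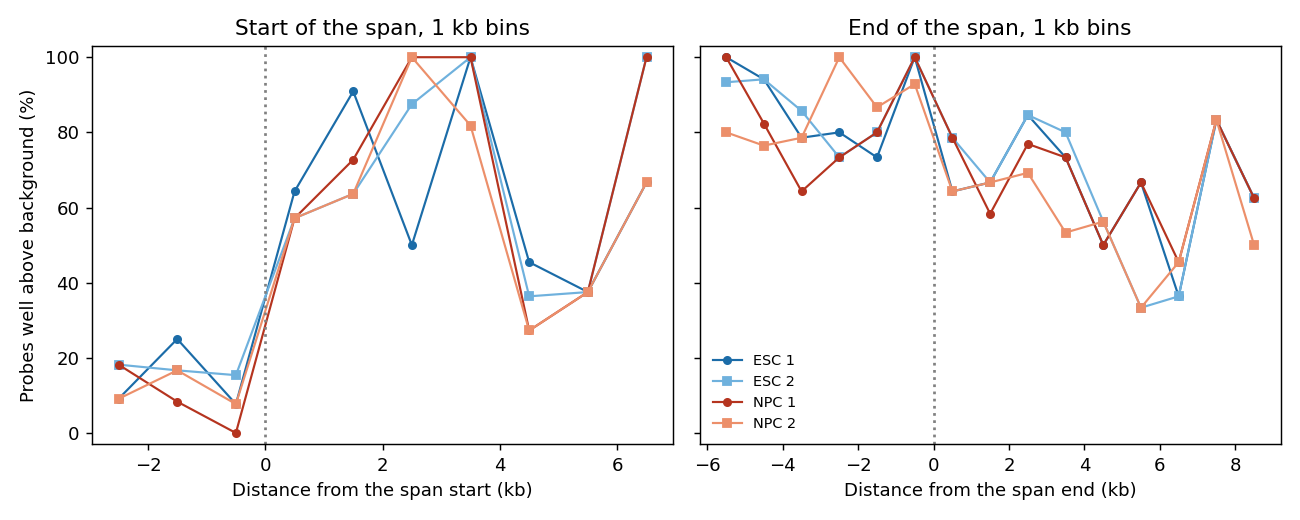
Share of probes well above background (%) in 1 kb bins by distance (kb) from the start (left) and the end (right) of the Rbm33 span, 1 line per array, with the dotted line at the border and identical values drawn over each other. The share stays at or below 25% on every array before the start, lies between 57.1% and 64.3% in the first bin inside, and lies between 64.3% and 78.6% in the first bin past the end.

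Along the gene the level rose and fell in a pattern largely, but not in every window, shared by the arrays. Probes differ in how strongly they respond, so the order of windows describes the signal and does not rank RNA amounts. In 20 of the 23 windows at least 50% of probes were above background on average, and the window shares ran from 34.3% to 84.3%. The window with the highest mean level was 28740001-28745000, at the end of the span, with -1.44 in ESC 1, -1.46 in ESC 2, -1.93 in NPC 1 and -1.23 in NPC 2. It was followed by 28685001-28690000, with -1.79, -1.62, -1.45 and -2.42 on the arrays in the same order, and by 28715001-28720000, with -1.73, -1.68, -1.93 and -2.52. In the first of these the NPC arrays lay on either side of the ESC pair, as they did in the second, and in the last both lay below it.

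The windows of lowest level were 28640001-28645000, which holds the span start, and 2 inside the gene. The window 28660001-28665000 read -3.70 in ESC 1, -4.08 in ESC 2, -4.29 in NPC 1 and -4.54 in NPC 2. The window 28695001-28700000 read -3.77, -3.83, -4.0 and -4.12 in that order. Both dips were present on all 4 arrays, and in both the NPC arrays lay below the ESC arrays. The share of probes above background there was 40.2% in ESC and 37.5% in NPC for the former, and 42.0% and 41.0% for the latter. The largest stretch between probe positions was 3228 bp, near 28675090, so the window 28670001-28675000 rests on 17 probes while the others hold 40 to 75.

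Window levels ranked much alike on the arrays, as a description over 23 windows read by the same probes. The Spearman coefficient was 0.947 between ESC 1 and ESC 2, and 0.813 between NPC 1 and NPC 2. Between cell types it ran from 0.799 for ESC 1 with NPC 2 to 0.912 for ESC 2 with NPC 1. Every coefficient that involved NPC 2 was below every one that did not.

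**Figure D2:**
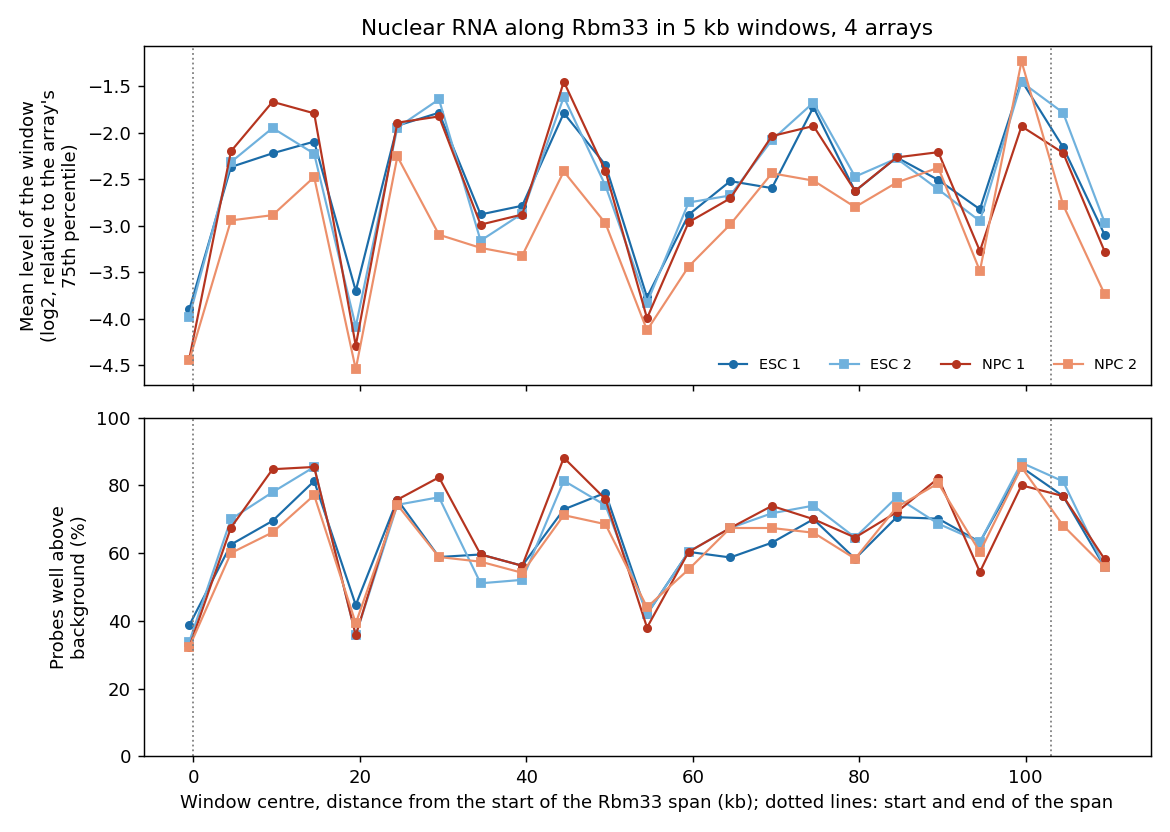
Mean level per 5 kb window (log2, relative to each array's 75th percentile, top) and share of probes well above background (%, bottom) against the distance of the window centre from the start of the Rbm33 span (kb), 1 line per array, with dotted lines at the start and end of the span. In the top panel all 4 lines dip at 28660001-28665000 and 28695001-28700000, whereas NPC 2 lacks the peak of the other lines at 28670001-28675000. NPC 2 lies below NPC 1 in 22 of 23 windows of that panel.

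The 3 single probes of highest level lay in the end-side part of the gene, and none was called different between the cell types. The next, at 28665532-28665591, lay 22.6 kb from the span start. The probe at 28717423-28717482 had a level of 4.69 in ESC 1, 4.41 in ESC 2, 4.33 in NPC 1 and 4.57 in NPC 2. The probe at 28744669-28744728 read 3.50, 4.13, 3.96 and 4.06 in the same order. The probe at 28713045-28713104 read 4.20, 3.93, 3.72 and 3.79. In the first and second the values of the groups overlapped, and in the last both NPC values were below both ESC values. Their changes were -0.10 (SE 0.31), 0.19 (SE 0.36) and -0.32 (SE 0.30), with limma adjusted p of 0.843, 0.736 and 0.501 over all probes.

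The comparison of ESC with NPC asked whether nuclear RNA over Rbm33 differs between the cell types, as part of the series' stated aim of comparing their profiles on the Shh region. The mean level over the 1244 probes was -2.53 in ESC 1, -2.52 in ESC 2, -2.58 in NPC 1 and -2.96 in NPC 2. Both NPC arrays lay below both ESC arrays, NPC 1 by little and NPC 2 by more. The difference was -0.25 (limma SE 0.15, adjusted p = 0.233 over 68 intervals of 115 kb), and the exact permutation test gave p = 0.333, the smallest that 2 arrays against 2 allow. In that fit 63.2% of intervals were called in either direction, and Rbm33 was not among them. In bulk RNA, fewer cells with transcript and less RNA per cell cannot be told apart.

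This value depended on the scaling and on 1 array. It was -0.44 without NPC 1, with a limma adjusted p of 0.00287, and -0.06 without NPC 2, with 0.426. With each array's percentile over all probes it was -0.64 (adjusted p = 0.00185), and with the control spots named SRN as the scale it was 0.03 or 0.17 and was not called.

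Over the 617 probes read above background on every array, the level was -0.85 in ESC 1, -0.91 in ESC 2, -0.82 in NPC 1 and -0.88 in NPC 2. The groups overlapped, and the difference was 0.03 (exact permutation p = 0.667). Probes of the span alone gave a difference of 0.06 over 566 probes. The 50 such probes after the span gave -0.35, from -1.42 in ESC 1, -1.34 in ESC 2, -1.57 in NPC 1 and -1.90 in NPC 2.

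Rbm33 stood above the rest of the Shh tile by more in NPC than in ESC. The difference between the mean over Rbm33 probes and the mean over all other probes of the tile, within 1 array, was 1.17 in ESC 1, 1.1 in ESC 2, 1.61 in NPC 1 and 1.38 in NPC 2. Both NPC arrays were higher than both ESC arrays. The group means were 1.13 ± 0.046 in ESC and 1.49 ± 0.16 in NPC (SD, n = 2), a gain of 0.36, and the two-sided exact permutation p was 0.333, the smallest possible. A shift of a whole array cancels in this contrast, so no scaling by a constant moves it. Its parts were a change of -0.25 over Rbm33 and of -0.61 over the rest of the tile. It was positive in each alternative run, from 0.078 with normexp background correction and quantile normalization together, to 0.66 with medians over probes.

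The flanks showed the same order. In the stretch of equal length before the interval the mean level was -3.52 in ESC 1, -3.63 in ESC 2, -4.14 in NPC 1 and -4.37 in NPC 2, a difference of -0.68. In the stretch of equal length after it the level was -3.74, -3.67, -4.19 and -4.20, a difference of -0.50. In both flanks the groups did not overlap and the NPC arrays were lower. The difference over Rbm33 was nearer 0 than over either flank, and the contrast with the flanks alone was not tested.

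**Figure D3:**
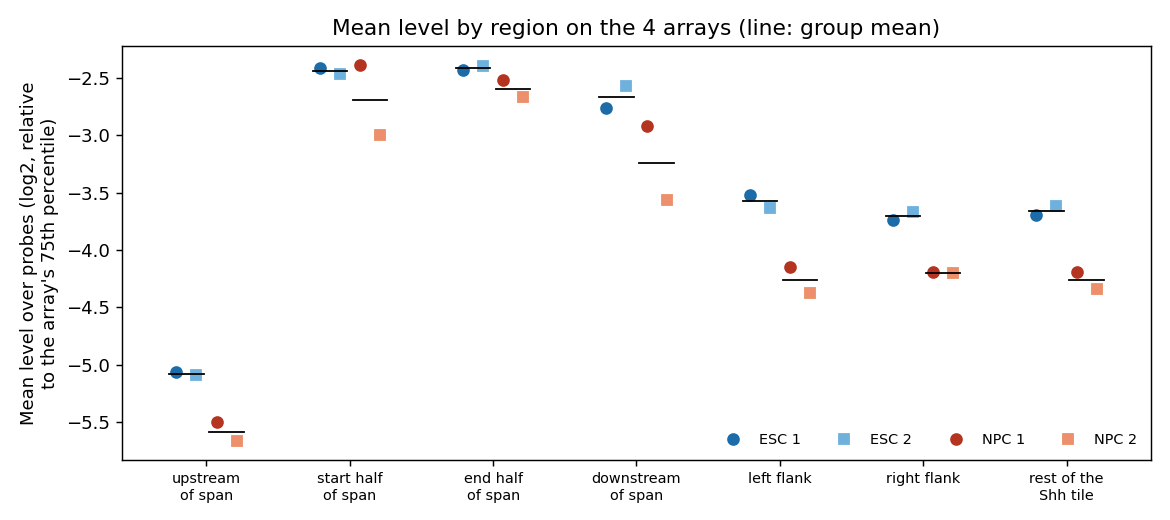
Mean level over probes (log2, relative to each array's 75th percentile) before the Rbm33 span, in its start-side and end-side parts of equal length, after it, in the flanking stretches and in the rest of the Shh tile, with 1 point per array and a line at each group mean. In the start-side part ESC and NPC 1 lie close together with NPC 2 below them. In the other regions shown both NPC arrays lie below both ESC arrays, with the smallest difference of group means in the end-side part.

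The start-side and end-side parts of the span, with 515 and 595 probes, had similar levels. The start-side part read -2.41 in ESC 1, -2.47 in ESC 2, -2.39 in NPC 1 and -2.99 in NPC 2. The end-side part read -2.43, -2.40, -2.52 and -2.67. The difference between the parts within 1 array was 0.02 in ESC 1, -0.07 in ESC 2, 0.13 in NPC 1 and -0.33 in NPC 2, so the NPC arrays lay on both sides of the ESC arrays. Its change from ESC to NPC was -0.07 (exact permutation p = 1).

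Of the 23 windows, 2 were called lower in NPC by limma at an adjusted p under 0.05 over all windows, and 0 were called higher. On the whole array 29.5% of windows were called lower and 22% higher, so under this scaling the count over Rbm33 was below the background in both directions. Before adjustment, 3 were lower and 0 higher at a limma p under 0.05, with no count for the whole array to set beside them. The lower count was 13 without NPC 1, where 432 of all 964 windows were lower, and 0 without ESC 1 or without ESC 2, where no window of the whole array was called. With the percentile over all probes it was 19, where 622 of all 964 were lower, so in these settings a larger share was lower over Rbm33 than over the array. It was 6 with the authors' values, where 442 of 960 were lower. With the SRN spots as the scale it was 0, with 1 window called higher, against 246 or 278 of all 964. In the rest of the tile 129 of 238 windows were called lower. The difference was below 0 in 20 of the 23 windows, with a median of -0.23, against -0.34 over all windows and -0.54 in the rest of the tile.

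The called windows lay at the start and near the end of the gene. The window 28640001-28645000 read -3.90 in ESC 1, -3.98 in ESC 2, -4.43 in NPC 1 and -4.45 in NPC 2, a change of -0.50 (SE 0.13, limma adjusted p = 0.0347). It holds the 36 probes before the span, of which 1 was above background on all arrays. The window 28735001-28740000 read -2.82, -2.95, -3.27 and -3.49, a change of -0.49 (SE 0.15, limma adjusted p = 0.0487). Neither kept its call with a common floor for the 4 arrays, where the changes were -0.30 and -0.42 with limma adjusted p of 0.127 and 0.0687. With dim probes left out, only probes well above background on both arrays of at least 1 group were kept. The window 28640001-28645000 then changed by -0.09 (limma adjusted p = 0.721), and the 2 windows called were 28735001-28740000 and 28660001-28665000. On the whole array 254 of 917 were then lower. A probe could pass this filter through its brighter group alone, so these calls are not separate support.

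The 3 largest differences below 0 and that of the last window were not called. The window 28670001-28675000, with 17 probes, read -1.79 in ESC 1, -1.64 in ESC 2, -1.83 in NPC 1 and -3.10 in NPC 2, a difference of -0.75 (SE 0.44, limma adjusted p = 0.193) that came mostly from NPC 2. The window 28745001-28750000, across the span end, read -2.16, -1.79, -2.22 and -2.78, a difference of -0.53 (limma adjusted p = 0.134). The window 28660001-28665000 was also at -0.52 (limma adjusted p = 0.0772), as was 28715001-28720000 (limma adjusted p = 0.113), and the last window, 28750001-28755000, was at -0.47 (limma adjusted p = 0.103). In each of these both NPC arrays were below both ESC arrays.

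In 3 windows the NPC mean was above the ESC mean. In 28730001-28735000 the level was -2.51 in ESC 1, -2.61 in ESC 2, -2.21 in NPC 1 and -2.38 in NPC 2, a difference of 0.27 (limma adjusted p = 0.161). It was the one window of the gene with both NPC arrays above both ESC arrays, a pattern held by 27.8% of all windows. In 28710001-28715000 and 28655001-28660000 the differences were 0.10 and 0.03, with overlapping groups. Both NPC arrays lay below both ESC arrays in 11 windows, against 57.8% of all windows, and the groups overlapped in the remaining 11.

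**Figure D4:**
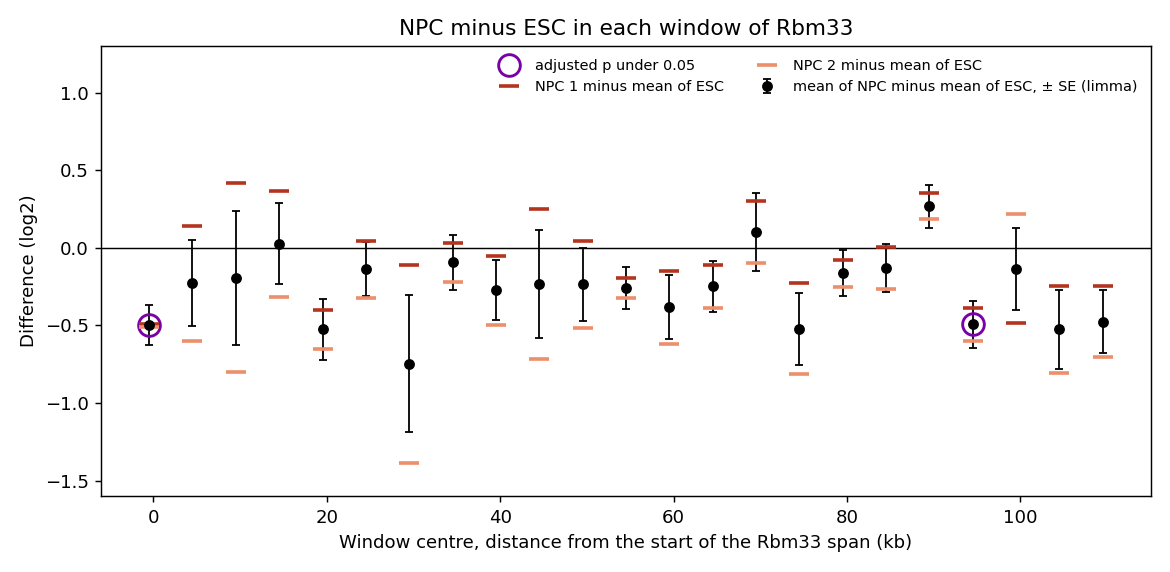
Difference in mean level from ESC to NPC (log2) for each 5 kb window against the distance of its centre from the start of the Rbm33 span (kb), with black points and bars for the limma estimate ± SE, coloured dashes for each NPC array against the ESC mean, and rings at an adjusted p under 0.05. Differences lie between -0.75 and 0.27, rings mark 2 windows, and the dashes of NPC 2 lie below those of NPC 1 in 22 of 23 windows.

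The NPC arrays differed from each other more than the ESC arrays did. The median absolute gap over the 23 windows was 0.44 between NPC 1 and NPC 2 and 0.13 between ESC 1 and ESC 2. NPC 2 was below NPC 1 in every window except 28740001-28745000, whereas ESC 2 was below ESC 1 in 13. The gaps of NPC 2 to NPC 1 were widest in 28670001-28675000 (-1.27), 28650001-28655000 (-1.22) and 28685001-28690000 (-0.97). The widest gaps of ESC 2 to ESC 1 were 0.52 in 28710001-28715000, -0.38 in 28660001-28665000 and 0.37 in 28745001-28750000. Among the 68 intervals of the array the NPC gap over Rbm33, 0.38, ranked 16.

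Single readings at the floor were most frequent on the same array. Of 701 Rbm33 probes above background on the other 3 arrays, 50 (7.13%) were at the floor in NPC 2. The corresponding counts were 3 of 639 in NPC 1, 13 of 662 in ESC 1 and 1 of 634 in ESC 2. On the whole array the share in NPC 2 was 4.02%, against 0.388% in NPC 1, 1.54% in ESC 1 and 0.597% in ESC 2. Over the 617 probes above background on every array NPC 1 was at -0.82 and NPC 2 at -0.88, but that choice of probes leaves out every such floor reading by construction.

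Single probes were tested in a fit over the whole array, in which 1230 Rbm33 probes had readings on all 4 arrays. Of these, 23 were called lower in NPC and 9 higher by limma at an adjusted p under 0.05. On the whole array 1.58% of probes were called lower and 10.8% higher. With all 4 arrays the lower count over Rbm33 was near that share and the higher count below it. Before adjustment, 68 were lower and 74 higher at a limma p under 0.05, with no count for the whole array to set beside them. Without NPC 1 the counts were 129 and 19 of 1232, against 3421 and 6273 of 47981 on the whole array, so the lower share over Rbm33 was then above that of the array. Without ESC 1 they were 21 and 2 of 1233, against 746 and 3842 of 48015 on the whole array. Without ESC 2 they were 20 and 17 of 1235, against 684 and 3833 of 48000. Of the 23 lower probes, 17 were above background in ESC but on neither NPC array, and 2 more on no array. Of the 9 higher probes, 8 were above background on neither ESC array. For such probes a fold is given only as a bound, and the 2 lower probes seen on no array and 3 of the 8 higher probes have none. A bound sets the brighter group's mean against the lowest signal well above background, or the dim probe's own reading where that is higher, averaged over the arrays of the dim group.

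The largest falls were single probes at the floor in NPC. The probe at 28700816-28700875 read 0.00 in ESC 1 and 0.41 in ESC 2 and was at the floor in both NPC arrays, a level at least 16.8-fold lower in NPC (limma adjusted p = 0.0104). The probe at 28700576-28700635 read 0.03 and -0.13 in ESC and was at the floor in both NPC arrays, at least 14.1-fold lower (limma adjusted p = 0.0104). The 3 probes between them, and the 2 that follow the former, stayed well above background on all 4 arrays. Directly before it, 28700756-28700815 read 0.65, 1.45, 1.24 and 0.89 on ESC 1, ESC 2, NPC 1 and NPC 2, and directly after it, 28700876-28700935 read 0.16, 1.49, 1.32 and 0.78. The fall was therefore one of single 60-base probes and not of the stretch around them. The probe at 28662098-28662157, at least 7.12-fold lower (limma adjusted p = 0.0105), also had above-background neighbours on both sides on all 4 arrays. Directly before it, 28662015-28662074 changed by -0.08, with overlapping groups. Directly after it, 28662158-28662217 read -0.54, -0.70, -1.37 and -1.88 on ESC 1, ESC 2, NPC 1 and NPC 2. The following probe, 28662218-28662277, changed by -1.03. In both probes after it the NPC arrays lay below the ESC arrays, and neither was called. A smaller fall was thus also read just after this probe.

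Some lower probes were measured in both groups. The probe at 28699642-28699701 read 3.01 in ESC 1, 2.90 in ESC 2, -0.22 in NPC 1 and 0.41 in NPC 2. This is 7.26-fold lower in NPC (limma adjusted p = 0.0187). Directly after it, 28699818-28699877 changed by 0.51. Directly before it, 28699528-28699587 changed by -2.80, with NPC 2 at the floor. Neither neighbour was called. After the span, the probe at 28748996-28749055 read 0.51, 0.15, -1.32 and -1.89, 3.82-fold lower (limma adjusted p = 0.0498). Directly before and after it, 28748936-28748995 and 28749056-28749115 changed by -0.67 and -0.92. In each, both NPC arrays lay below both ESC arrays, and neither was called. Near these, the probe at 28748816-28748875 read -0.22 in ESC 1, 0.97 in ESC 2, -4.84 in NPC 1 and -3.69 in NPC 2 (limma adjusted p = 0.0239). No fold is given for it because 1 of the 2 NPC readings was not well above background. These probes were named after their values were seen.

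The higher probes were dimmer. The probe at 28710517-28710576 was at the floor in both ESC arrays and read -3.55 in NPC 1 and -2.30 in NPC 2, at least 1.46-fold higher (limma adjusted p = 0.0452). Its neighbours changed by -1.34 directly before it and by -0.18 directly after it. The probe at 28710697-28710756 was at least 1.50-fold higher (limma adjusted p = 0.0439) and 28644982-28645041 at least 1.03-fold higher (limma adjusted p = 0.018). Directly after the former, both NPC arrays lay above both ESC arrays. The latter was part of a stretch that read higher in NPC. The 8 probes of 28645000-28645999, this one included, read -2.92 in ESC 1, -1.93 in ESC 2, -1.16 in NPC 1 and -1.11 in NPC 2. The 1 kb before was lower in NPC, at -1.54, -1.68, -2.59 and -2.35. Neither bin was tested. The single higher probe measured in both groups, 28668002-28668061, read -3.20, -3.25, -1.54 and -1.43 on ESC 1, ESC 2, NPC 1 and NPC 2, 3.34-fold higher (limma adjusted p = 0.0343). It too was named after its values were seen.

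The intervals of the array whose 4 levels most resembled those of Rbm33 in pattern were chosen by the root mean square distance after each interval's own mean was removed, over 4 arrays and 68 intervals. Scaling each array by a constant does not move this distance, and it was not computed under other settings. The nearest was chr6:125094615-125209614, at a distance of 0.07, with levels of -0.73 in ESC 1, -0.65 in ESC 2, -0.91 in NPC 1 and -1.15 in NPC 2. It was followed by chr2:74694931-74809930 (0.07) and chr2:74579931-74694930 (0.08). Their changes were -0.34, -0.39 and -0.23, and none of the 3 was called. By mean level over the arrays Rbm33 ranked 15 among the 68 intervals.

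**Figure D5:**
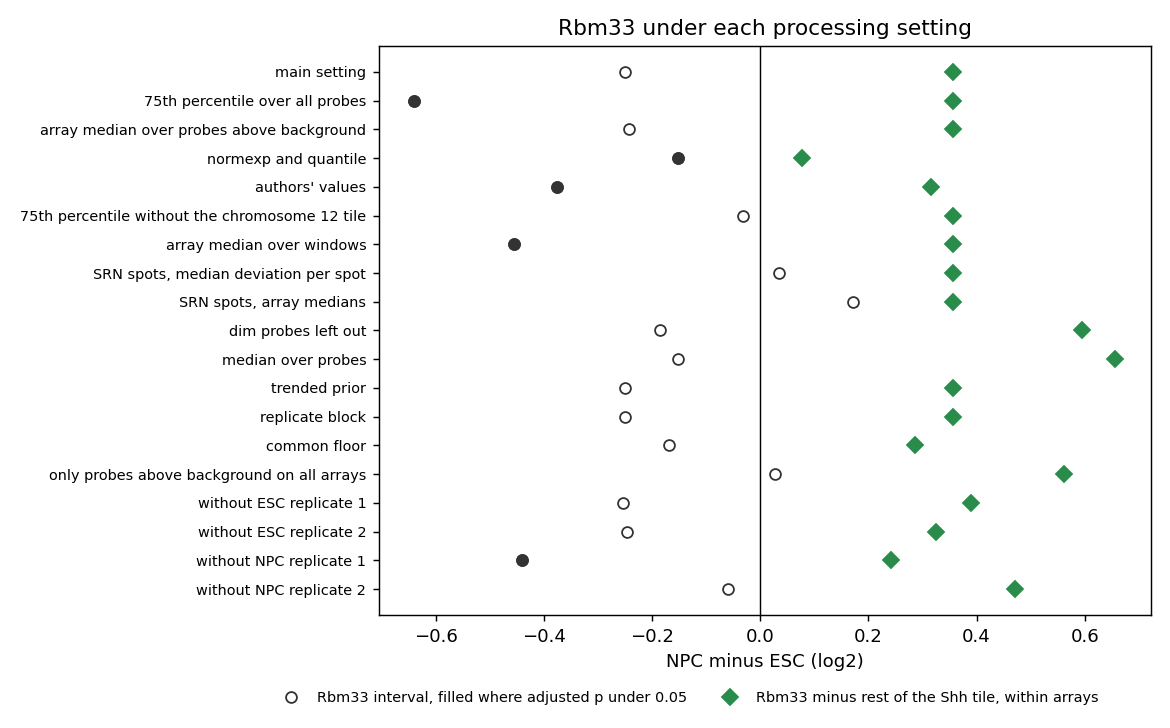
Difference from ESC to NPC (log2) under each processing setting, with circles for the mean over the Rbm33 interval (filled where the adjusted p is under 0.05) and diamonds for Rbm33 minus the rest of the Shh tile within arrays. The circles lie on both sides of 0, from -0.64 to 0.17, and the diamonds lie above 0 in every setting, from 0.078 to 0.66.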

How the data were processed

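The deposited scanner files hold spot intensity (gProcessedSignal) that Agilent Feature Extraction 11.5.1.1 made by background subtraction, with a floor for low values and no scaling between arrays, per the file headers. Marks of spots well above background, saturated or outlying (unit other) come from the same program, per the file headers. The authors also deposited processed values in a series-wide file, whose range is that of log2 intensity. The submitters' processing notes name limma with no version, and the normalization and centring of these values are not stated there. The column medians were 4.95, 4.95, 4.97 and 4.99 for ESC 1, ESC 2, NPC 1 and NPC 2. The file holds 1125 of the 1244 Rbm33 probes, and 6777 probes of the array have no value there. The column of ESC 1 did not follow its own scanner file (Spearman 0.873, against 0.900 with that of ESC 2), so these values were kept for comparison.

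The 3188 control spots and outlier readings were left out. From the log2 intensity of an array its 75th percentile was subtracted, taken over the 15356 probes above background on each of the 4 arrays, a subset used because only 48.9% of all readings were above background. Probe levels were averaged for each array over 5 kb windows (5 probes or more) and over 115 kb intervals (50 probes or more) laid across the whole array. They were tested with limma 3.58.1 (lmFit, eBayes, group as the one term) in R 4.3.3, with the package data.table (version 1.17.8) and with Benjamini-Hochberg adjustment over all windows, intervals or probes. The fit was tested on simulated data. The smallest exact permutation p is 0.333, and the number of arrays limits the precision. Tiles are separated by gaps of over 50 kb between probes, and the Shh tile is the one that holds the interval.

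Groups and numbers came from the sample titles. Arrays of the same number did not deviate together (r = -0.028 over 47900 probes, and 0.028 crossed), so the numbers were not taken as pairs. Named windows were those called, the 3 highest and lowest in level, the 3 largest differences in each direction, the 3 largest gaps within each group, and the first and last. Named probes were the 3 largest called changes in each direction and the 3 brightest. The interval, windows and rules were chosen with earlier results of these data known. Alternatives were other percentiles and medians, control spots as scale, normexp (offset 50, on median spot signals) with quantile normalization, the authors' values, dim probes left out, medians over probes, a trended prior, a replicate block, other window sizes and each array left out. A common floor and the restriction to probes above background on all arrays were added after seeing the data. Exon positions and lists of related genes were not examined, since no mm9 annotation was used here. Plots were made in Python 3.11.15 (matplotlib 3.10.9).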

Additional observations from a re-analysis of the deposited data

Results flagged for a closer look

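Control spots named SRN, which take no part in the comparisons, gave signal: on average over the 4 arrays, 56.4% of the 677 exceeded background clearly, from 54.9% in NPC 1 to 57.9% in ESC 2. Among the 660 negative control spots the average was 1.93%. The sources used here do not say which sequences SRN spots match. With 2 arrays a group, no Rbm33 value was screened for a lone outlying array.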

How the results depend on the processing

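The gain of Rbm33 over the rest of the Shh tile stayed positive under each alternative, from 0.078 with normexp and quantile normalization (normexp, for short, from here on) to 0.66 with medians over probes, and from 0.24 to 0.47 with 1 array left out. The other results moved with the scaling. The change of the interval was called lower at -0.64 (percentile over all probes), -0.15 (normexp), -0.37 (authors' values) and -0.45 (each array's median over windows). It turned to 0.035 and 0.17 with the SRN spots (median deviation per spot, and array medians) and to 0.028 over probes above background on all arrays, and ran from -0.44 to -0.060 with 1 array left out. Of windows called lower, the whole array had 622, 353 and 540 of 964 with the percentile over all probes, normexp and the median over windows. With the authors' values it had 442 of 960. Over Rbm33 the count was 19, 8, 6 and 11 of 23 in the 4 settings named first. It was 1 with the array median over probes above background, with medians over probes and with a trended prior, and 0 without the chromosome 12 tile, with either SRN scale, a common floor, probes above background on all arrays, and windows of 2 kb or 10 kb. In the settings with 1 such window, the whole array had 257, 147 and 339 of 964 lower, in the same order. In those with 0 it had 64, 68, 67 and 124 of 964, then 171 of 860, 333 of 2312 and 215 of 503. Windows called higher were 1 with either SRN scale, against 246 and 278 of all 964. Leaving out 1 array gave 0 to 13 windows lower, with 0 on the whole array without ESC 1 or without ESC 2, and 0 to 0 higher. It gave 20 to 129 probes lower and 2 to 19 higher. The 129 and 19 were without NPC 1, where the whole array had 3421 and 6273 of 47981. The 20 were without ESC 2, with 684 of 48000, and the 2 without ESC 1, with 3842 of 48015. Probes called higher were 3 (percentile over all probes), 4 (normexp), 0 (authors' values), 5 (median over windows), 16 without the chromosome 12 tile, 22 and 32 with the SRN scales, 15 with dim probes left out, 3 with a trended prior and 16 with a common floor. In the same order the whole array had 4129, 2928, 3912, 4571, 5706, 5883, 6302, 5612, 4144 and 3567 probes higher. These were of 47900 probes, or 41539 with the authors' values and 25391 with dim probes left out. Over probes above background on all arrays 3 were lower and 5 higher, against 239 and 834 of 15111 on the whole array. The difference between the start-side and end-side parts turned to 0.044 with the authors' values and ran from -0.30 to 0.16 with 1 array left out.

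With the replicate block 0 windows were called lower and 0 probes higher, while 17 probes were lower and the interval stayed at -0.25 (limma adjusted p = 0.214). On the whole array 179 of 964 windows were then called lower, and of 47900 probes 401 were lower and 3690 higher. The block's numbers do not pair the samples.

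Small window differences changed sign. That of 28650001 was 0.026 without the chromosome 12 tile, 0.093 and 0.23 with the SRN scales, 0.042 with medians over probes and 0.073 over probes above background on all arrays, and -0.80 to 0.42 with 1 array left out. That of 28655001 was -0.36 (percentile over all probes), -0.063 (normexp), -0.20 (authors' values), -0.18 (median over windows) and -0.026 (dim probes left out), and -0.32 to 0.37 with 1 array left out. That of 28685001 was 0.053 and 0.19 with the SRN scales and 0.029 over probes above background on all arrays, and -0.71 to 0.25 with 1 array left out. That of 28695001 was 0.024 and 0.16 with the SRN scales and 0.034 with dim probes left out. That of 28710001 was -0.29 (percentile over all probes), -0.31 (authors' values) and -0.10 (median over windows), and -0.16 to 0.36 with 1 array left out. That of 28730001 was -0.12, -0.0066 and -0.10 with the percentile over all probes, normexp and the authors' values. That of 28740001 was 0.083 without the chromosome 12 tile, 0.15 and 0.29 with the SRN scales, 0.063 with medians over probes and 0.18 over probes above background on all arrays, and -0.48 to 0.21 with 1 array left out. The cause of these shifts was not tested. With 2 arrays a group, and 21.5% of Rbm33 probes never above background, small differences cannot be resolved.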
